A study of Rattus norvegicus with 3 samples.

Results

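The transcripts of the rat pineal gland at midday were set against those of a pool of 15 other tissues taken at the same hour. The comparison holds 8799 genes and regions, those with at least 5 FPKM (a fragment count divided by transcript length in kilobases and by the size of the library) in the gland or in the pool, of 16629 in all, or 52.9%. Of these, 8765 are named RefSeq genes and 34 are regions without a gene name. Poly(A) RNA came from adult Sprague-Dawley rats kept on a cycle of 14 h light to 10 h dark: 1 pineal library from zeitgeber time 7 (hours after lights on, midday), 1 from zeitgeber time 19 (midnight) and 1 library of mixed tissues from zeitgeber time 7. The pool combined equal amounts of RNA from 8 neural or endocrine tissues of the head and spine, namely retina, pituitary, spinal cord, hypothalamus, cortex, hindbrain, midbrain and cerebellum, and from adrenal gland, skeletal muscle, small intestine, heart, kidney, lung and liver. The sources used here do not give the number of animals behind each library. With 1 library per group there is no replicate check, no spread between animals and no p-value, and differences are described by their size. Counting error alone puts a 1 kb transcript at 5 FPKM between 3.63 and 6.72 in the pineal library and between 3.70 and 6.62 in the pool (exact 95% Poisson bounds). A level of 3 fragments on 1 kb corresponds to 0.343 FPKM in the gland and 0.308 FPKM in the pool.

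Each ratio is the log2 of FPKM + 1 in the gland over FPKM + 1 in the pool, so a value of 2 stands for a 4-fold difference, and the change of genes with low values is understated. Because the pool is an average, a transcript of a single organ is diluted in it, and a ratio does not place the gland against any one organ. Retina and pituitary, which share many genes with the pineal gland, are part of the pool. In bulk RNA, fewer cells of a type and less RNA per cell cannot be told apart.

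The pineal gland makes melatonin, the hormone of darkness. Its main cell, the pinealocyte, takes up tryptophan, turns it into serotonin through tryptophan hydroxylase and aromatic amino acid decarboxylase, and at night acetylates and methylates serotonin to melatonin. Sympathetic fibres release noradrenaline in the dark, and beta and alpha-1 adrenergic receptors raise cyclic AMP in the pinealocyte. Pinealocytes and retinal photoreceptors share an evolutionary origin, and in both the homeobox factors Crx and Otx2 drive many genes. In mammals the gland no longer responds to light directly, yet it keeps much of the photoreceptor transcript set.

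Crx and Otx2 bind DNA around the letters TAATCC, and TAATCT is a close variant. Promoters from RefSeq (GRCr8, 250 bases before to 50 bases after each gene's start) were available for 59 of the 80 named genes with a pineal level at least 8-fold above the pool. TAATCC or TAATCT stood on either strand in 13 of them, or 22.03%, against 10.1% of the promoters of all genes compared (725 of 7189), 12.7% of those of genes at least 8-fold lower (73 of 576) and 14.9% of all 27457 promoters in the table. Among genes at least 4-fold higher it was 35 of 188 promoters, or 18.6%, and among those at least 16-fold higher 5 of 28, or 17.9%. The other motifs searched were CACGTG, the E-box, and TGACGTCA, the cyclic AMP response element. Each stood in 3 of the 59 promoters of genes at least 8-fold higher (5.08%), against 9.49% and 3.27% of all compared. CACGTG and TGACGTCA share the letters ACGT, and a match is a description of the sequence, not a bound site.

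The promoters of 5 genes described below are shown as examples, picked because each holds such letters and each gene was at least 4-fold higher in the gland. Capitals mark TAATCC or TAATCT, or GGATTA where the match lies on the opposite strand. They lie at chr1:106314579-106314878, minus strand (Tph1), chr4:58945776-58946075, minus strand (Opn1sw), chr16:9273537-9273836, plus strand (Rbp3), chr10:102326073-102326372, plus strand (Aanat) and chr1:85681803-85682102, minus strand (Crx), all on GRCr8, and the match begins 230, 106, 103 and 106 bases before the start in the first 4 genes, and at 170 and 97 bases in Crx.
Tph1: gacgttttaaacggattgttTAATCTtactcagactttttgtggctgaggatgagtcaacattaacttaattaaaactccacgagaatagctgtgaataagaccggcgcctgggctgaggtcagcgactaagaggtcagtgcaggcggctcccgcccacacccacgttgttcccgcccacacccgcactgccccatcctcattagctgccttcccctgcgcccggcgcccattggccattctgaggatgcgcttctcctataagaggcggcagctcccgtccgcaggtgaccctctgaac
Opn1sw: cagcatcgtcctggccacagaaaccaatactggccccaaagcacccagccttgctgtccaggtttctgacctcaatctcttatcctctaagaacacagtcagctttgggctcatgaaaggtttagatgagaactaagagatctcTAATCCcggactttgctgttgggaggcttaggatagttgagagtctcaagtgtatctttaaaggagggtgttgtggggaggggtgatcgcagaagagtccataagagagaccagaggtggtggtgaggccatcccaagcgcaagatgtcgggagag
Rbp3: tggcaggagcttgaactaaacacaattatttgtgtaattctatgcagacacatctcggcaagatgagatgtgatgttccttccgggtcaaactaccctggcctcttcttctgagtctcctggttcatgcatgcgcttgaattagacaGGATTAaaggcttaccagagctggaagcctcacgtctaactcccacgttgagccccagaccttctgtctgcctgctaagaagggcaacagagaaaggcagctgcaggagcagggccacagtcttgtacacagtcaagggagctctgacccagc
Aanat: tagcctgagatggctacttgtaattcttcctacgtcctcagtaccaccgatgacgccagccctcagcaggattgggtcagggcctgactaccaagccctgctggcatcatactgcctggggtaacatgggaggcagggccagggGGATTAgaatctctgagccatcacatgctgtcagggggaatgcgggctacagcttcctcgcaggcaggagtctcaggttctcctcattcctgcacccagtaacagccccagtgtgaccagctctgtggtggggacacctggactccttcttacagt
Crx: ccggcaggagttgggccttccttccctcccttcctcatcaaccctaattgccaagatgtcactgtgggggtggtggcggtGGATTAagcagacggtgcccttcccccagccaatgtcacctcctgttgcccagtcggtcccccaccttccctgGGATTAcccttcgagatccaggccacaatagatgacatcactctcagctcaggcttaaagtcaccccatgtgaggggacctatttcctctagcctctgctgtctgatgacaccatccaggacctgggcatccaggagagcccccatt
Esm1, also described below, holds TAATCC 77 bases before its start and is not shown. The same letters were not in these windows of Asmt, Chrnb4, Lhx4, Isl2, Col8a1, Bsx, Gch1, Kcnh6, Prss53, Mpp4, Mitf or Neurod4. All of these genes without the letters were among the 20 with the highest ratios. Ptprn, outside those 20, also lacked the letters.

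At midday 265 genes and regions (3.01% of those compared) exceeded the pool by at least 4-fold in the pineal gland and 1389 (15.8%) were at least 4-fold lower. A further 81.2% lay within 4-fold and 63.6% within 2-fold. The median log2 ratio over all genes compared was -0.17, and families are read below against that value: a median between -0.17 and 0 turns positive when ratios are centred. Counts of list and family members at least 4-fold apart are likewise to be read against the shares of 3.01% and 15.8%. The counts at 8-fold were 92 higher (1.05%) and 761 lower (8.65%), at 16-fold 39 (0.443%) and 339 (3.85%), and at 32-fold 18 higher (0.205%) and 165 lower (1.88%). The genes at least 4-fold higher held 16.2% of all FPKM in the gland and 1.43% in the pool. Those at least 4-fold lower held 1.27% in the gland and 29.0% in the pool. Both sides differ in how the low library reads: 288 of the 1389 lower genes were listed at 0 in the gland, whereas 5 of the 265 higher genes were listed at 0 in the pool. At least 5 FPKM in both libraries was seen for 6033 genes, in the gland alone for 594 and in the pool alone for 2172.

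Just inside the FPKM floor stood Slc1a7 with 1.38 FPKM for the gland and 5.003 in the pool, and just outside it B4galnt4 at 0.126 and 4.998. Just inside the 4-fold mark stood Sirt3, with a log2 ratio of 2.00 from 74.8 and 18.0 FPKM, and just outside it Nudt7 at 11.4 and 2.11 FPKM.

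**Figure D1:**
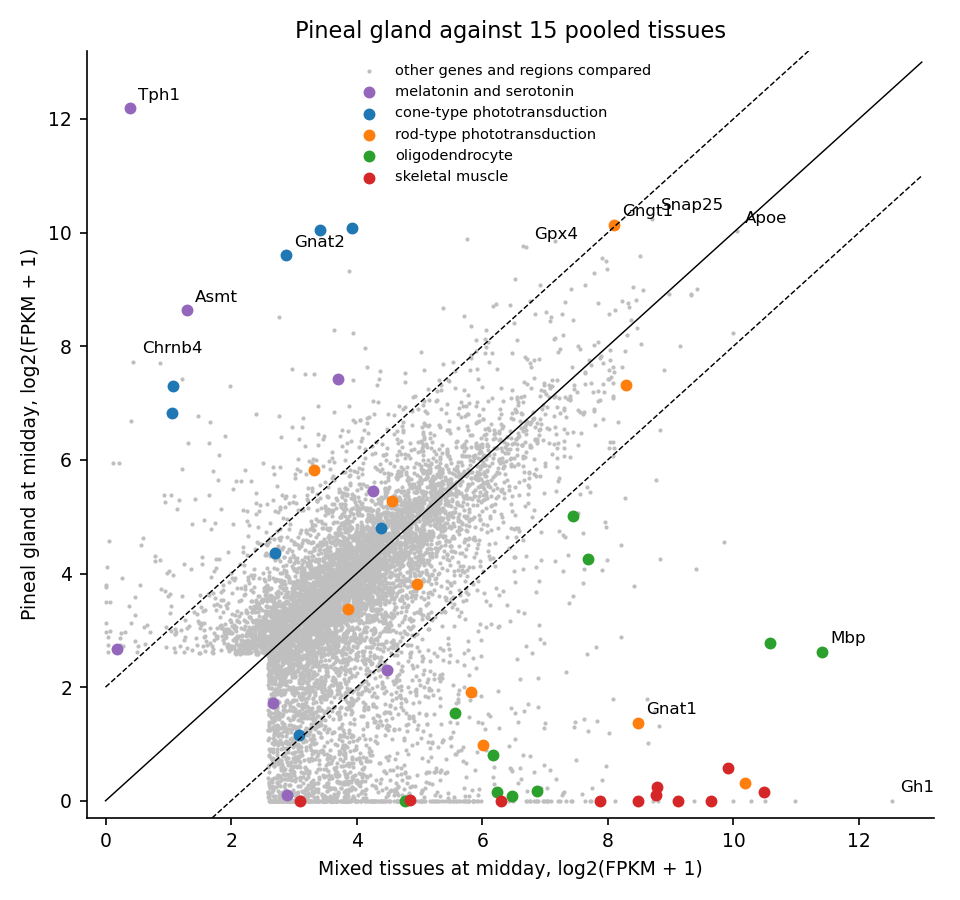
Each dot is 1 of the 8799 genes and regions compared, with log2(FPKM + 1) in the mixed tissues on the x axis and in the pineal gland at midday on the y axis; the solid line marks equal values and the dashed lines 4-fold differences. Tph1 stands alone at the top left, cone-type genes lie above the upper dashed line or between the lines, and the oligodendrocyte and skeletal muscle markers lie below the lower line.

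The enzymes of melatonin synthesis led the comparison. Tph1, tryptophan hydroxylase, had 4665 FPKM in the gland at midday, 4245 at midnight and 0.309 in the pool, the highest ratio of all (log2 11.80), and alone held 2.22% of all FPKM of the midday gland. Its pool value lies at the level of 3 fragments on 1 kb. Asmt, which methylates N-acetylserotonin to melatonin, stood at 395 FPKM by day, 506 by night and 1.45 in the pool. Ddc, the decarboxylase that makes serotonin, stood at 171, 288 and 11.99 FPKM. Aanat, the acetylating enzyme that controls the nightly rhythm, was the low member: 5.34 FPKM at midday, 762 at midnight and 0.134 in the pool, so that it was above the pool (log2 2.48) even at its daytime level. Of 8 melatonin and serotonin genes compared, 4 were at least 4-fold higher and 2 at least 4-fold lower. The lower ones were Maoa, monoamine oxidase A (3.93 against 21.4 FPKM), and Slc6a4, the serotonin transporter (0.0707 against 6.44). Maob, the other monoamine oxidase, was higher in the gland at 42.7 against 18.1 FPKM, a difference under 4-fold. Tph2, the neuronal tryptophan hydroxylase, was under the 5 FPKM floor in both, at 0.0691 against 2.88.

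Tryptophan hydroxylase needs the cofactor tetrahydrobiopterin. Gch1, GTP cyclohydrolase, the first enzyme of its synthesis, had 366 FPKM at midday, 270 at midnight and 5.77 in the pool (log2 5.76). Gchfr, the regulatory protein that binds GTP cyclohydrolase and mediates its feedback inhibition, went the other way, at 0.293, 0.862 and 15.0 FPKM. Pcbd1, which regenerates the cofactor, stood at 210, 184 and 45.1 FPKM. The later synthetic enzyme Pts (8.74 against 6.74 FPKM) lay within 2-fold, and Qdpr, the reductase that also recycles the cofactor, was lower within 4-fold at 40.7 against 95.1 FPKM. The enzyme and its partner protein therefore lay on opposite sides of the pool.

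Phototransduction starts with an opsin, which activates the G protein transducin and a cyclic GMP phosphodiesterase that closes a cation channel. Rods and cones use different genes for most steps. Of the 8 cone-type genes with enough signal, 5 were at least 4-fold higher and none lower, with a median log2 ratio of 5.97. Of 10 rod-type genes, 2 exceeded the pool by at least 4-fold and 4 fell short of it by as much, with a median of -1.06. Summed over all members found, the cone-type list held 3235 FPKM in the gland and 69.1 in the pool, and the rod-type list 1407 and 2291.

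Transducin had cone-type subunits in all 3 positions. The alpha subunit of cones, Gnat2, stood at 777 FPKM at midday, 618 at midnight and 6.35 in the pool, whereas the rod alpha subunit, Gnat1, stood at 1.59, 0.888 and 355. The cone beta subunit, Gnb3, stood at 1088, 1027 and 14.2 FPKM. The rod beta subunit Gnb1, which most tissues express, was at 9.39, 10.2 and 13.6 FPKM. Gnb1 has 3 named copies in RefSeq, whether they lower its level was not tested, and its level is uncertain. The cone gamma subunit, Gngt2, stood at 1053, 1017 and 9.71 FPKM. The rod gamma subunit Gngt1 departed from its rod partners, at 1128, 1828 and 273 FPKM. Both gamma subunits thus reached about the same level in the gland at midday, and their pool values differed.

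The opsin, the phosphodiesterase and the arrestins followed a less even order. Opn1sw, the short-wavelength cone opsin, had 112 FPKM at midday, 104 at midnight and 1.08 in the pool. Opn1mw, the other cone opsin of the rat, was listed at 0 in the gland and at 3.57 FPKM in the pool, under the floor. The cone catalytic phosphodiesterase subunit Pde6c stood at 156, 229 and 1.10 FPKM. The rod catalytic subunits were low in the gland, Pde6a at 0.985 against 63.7 FPKM and Pde6b at 2.75 against 55.7. Of the small inhibitory subunits, the cone form Pde6h was itself low, at 1.22 against 7.46 FPKM. Arr3, cone arrestin, stood at 19.6 FPKM against 5.49. Sag, the rod arrestin, was the more abundant of the pair in the gland at 158 FPKM at midday and 337 at midnight, beside 311 in the pool. The rod channel subunits differed from each other: Cngb1 stood at 55.7 against 9.02 FPKM, and Cnga1 at 13.1 against 30.1. The cone channel subunit Cnga3 was under the floor in both libraries, at 0.505 against 0.276 FPKM, and is not among the cone-type genes compared.

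**Figure D2:**
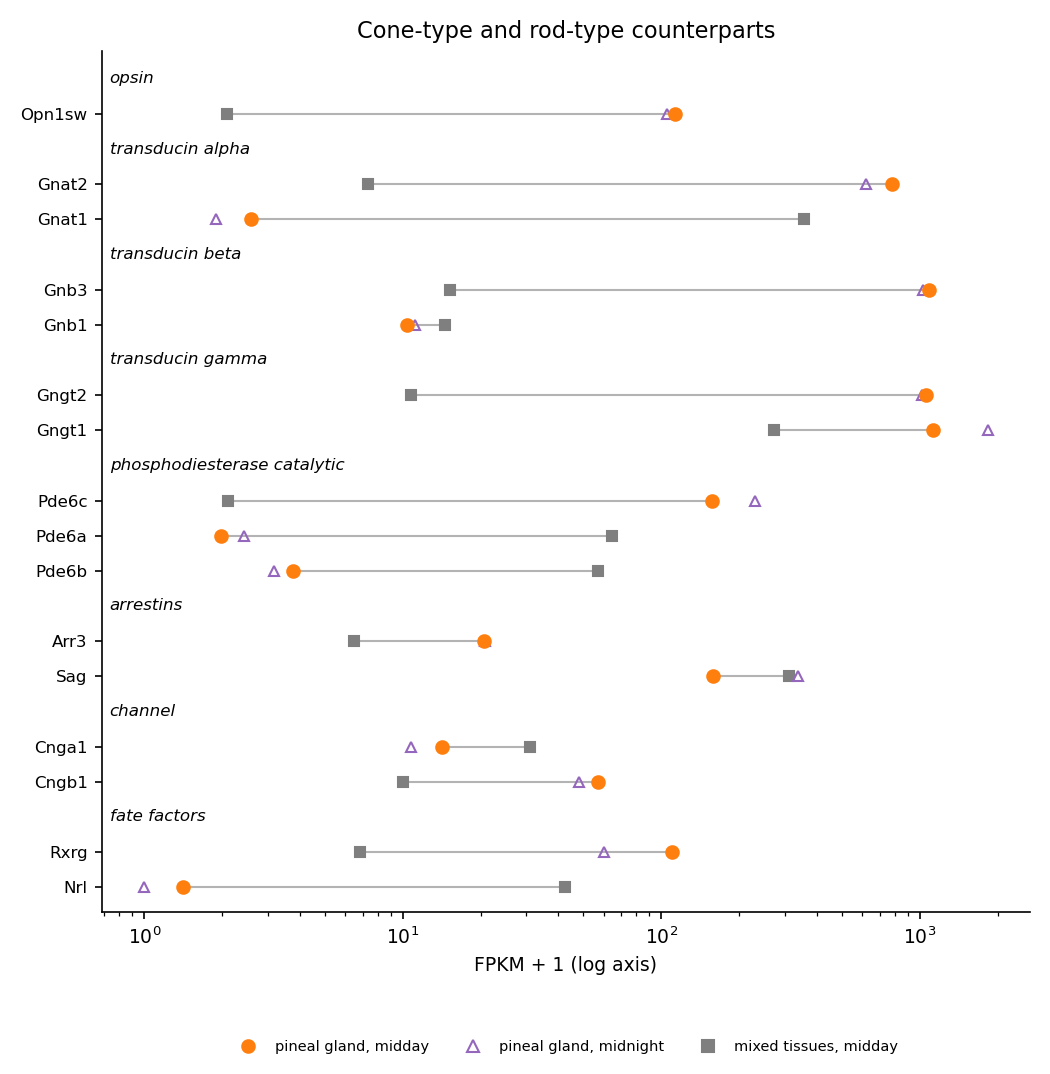
Levels of cone-type and rod-type counterparts as FPKM + 1 on a log axis, 1 value per library: circles for the gland at midday, triangles for midnight, squares for the mixed tissues. For transducin alpha and the phosphodiesterase the cone form is right of its square and the rod form left of it, while Gngt1 lies to the right of its square like the cone form Gngt2.

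Genes that rods and cones share were mostly higher in the gland: of 12 compared, 4 were at least 4-fold higher, 1 at least 4-fold lower, and the median log2 ratio was 1.79. The higher ones were Aipl1, a chaperone of the phosphodiesterase (368 against 51.3 FPKM), Grk1, a kinase that shuts off light-activated opsin (90.7 against 16.4), Rgs9, which speeds the shutoff of transducin (82.1 against 16.05), and Guca1b, an activator of guanylate cyclase (240 against 58.5). Pdc, phosducin, which binds transducin beta and gamma subunits, was the most abundant member at 440 FPKM at midday, 235 at midnight and 159 in the pool. Rcvrn, recoverin, the calcium sensor that restrains this kinase, was the exception at 2.27, 1.70 and 105 FPKM. The gland thus differed in its calcium sensors, with Guca1a (149 against 39.6 FPKM) and Guca1b above the pool and Rcvrn below it.

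Of 15 genes of outer segments and discs, 5 were at least 4-fold higher (33.3%, against 3.01% of all genes compared). At least 4-fold lower were 3 (20%, near the 15.8% of all genes compared). Impg1 and Impg2, proteoglycans of the matrix between photoreceptors, stood at 94.8 against 7.77 FPKM and 103 against 15.6. Tulp1, needed for protein transport to the outer segment, stood at 205 against 40.6, the kinase Mak at 33.1 against 4.45, and the disc rim protein Rom1 at 442 against 108. Prph2, the partner of Rom1, was as abundant in the gland at 434 FPKM, with 228 in the pool. The lower genes were Rp1, a microtubule protein of the axoneme (0.105 against 27.4 FPKM), Abca4, the retinoid flippase of discs (0.443 against 12.9), and Kcnv2, a photoreceptor potassium channel subunit (0.235 against 5.09). Cilium genes as a group lay near the other genes: of 21 compared, 19 were within 4-fold, and the 2 higher ones were Ttc8 (35.9 against 4.49 FPKM) and Arl6 (50.5 against 11.2), both of which belong to the Bardet-Biedl group.

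The retinoid genes were split. Rbp3, the retinoid carrier of the matrix around photoreceptors, stood at 406 FPKM at midday, 473 at midnight and 40.4 in the pool, and was the 1 member of 12 compared that was at least 4-fold higher. The 4 members at least 4-fold lower were Rbp2 (0.120 against 104 FPKM), Rbp4 (25.1 against 193), Crabp1 (0.205 against 5.27) and Cyp26b1 (0.983 against 7.14). Rpe65 and Lrat, the isomerase and acyltransferase of the visual cycle, were under the floor in both libraries, with Rpe65 listed at 0 in the gland. Ttr, transthyretin, which carries thyroid hormone and the retinol-binding protein, was abundant in both libraries at 516 and 685 FPKM.

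Several transcription factors of photoreceptors and the pineal lineage were among the genes furthest above the pool. Of 17 compared, 10 lay at least 4-fold above it (58.8%) and 4 as far below (23.5%), with a median of 2.19. Over all genes compared the shares were 3.01% and 15.8%. The list held 27 factors found, and those under 5 FPKM in both libraries are left out of these counts. With no filter the median was -0.23, so 2.19 holds for the factors that passed the floor. Lhx4, a LIM homeobox factor, stood at 207 FPKM at midday, 389 at midnight and 0.816 in the pool. Isl2, another LIM homeobox factor, stood at 101, 37.2 and 0.319 FPKM. Bsx, a homeobox factor known from the pineal gland and hypothalamus, stood at 60.6, 493 and 0.0851 FPKM. Crx and Otx2 themselves had higher pool values than these 3: Crx stood at 237, 421 and 31.5 FPKM and Otx2 at 189, 337 and 19.7. The bHLH factors Neurod4 (193 against 6.81 FPKM) and Neurod1 (138 against 29.4) were higher, while Neurod2 was low at 0.0793 against 5.77. Mitf, the regulator of melanocytes and retinal pigment epithelium, stood at 77.6 against 2.12 FPKM, and the paired box factor Pax4 at 40.6 against 8.24. Nrl, the leucine zipper factor that directs photoreceptors to the rod fate, was at 0.407 FPKM by day, listed at 0 by night and at 41.5 in the pool. Rxrg, a retinoid receptor found in cones, was at 109, 58.9 and 5.81 FPKM. Rxrg and Nrl therefore lay on opposite sides of the pool, while Thrb, a thyroid hormone receptor that acts in cones, was under the floor in the midday gland and the pool (1.76 against 4.48 FPKM). The T-box factor Tbx2 was also low, at 0.643 against 7.93 FPKM.

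Photoreceptors release glutamate at ribbon synapses, and pinealocytes carry synaptic ribbons too. Among 34 genes of ribbons and vesicle release, 6 were at least 4-fold higher (17.6%, against 3.01% of all genes compared). At least 4-fold lower were also 6 (17.6%, near the 15.8% of all genes compared), and paralogs fell on different sides. Complexins, which clamp the fusion machinery, gave the clearest case. Cplx3, a complexin of retinal ribbon synapses, stood at 181 FPKM at midday, 263 at midnight and 8.02 in the pool, and Cplx4, the other retinal form, at 158, 183 and 39.7. Cplx1 and Cplx2, the forms of most brain synapses, stood at 0.555 against 126 and at 0.834 against 48.0 FPKM. Syntaxin 3, Stx3, which serves ribbon synapses, was at 34.2 against 15.3 FPKM, and Stx1a at 1.99 against 10.4. Of the Munc13 proteins that prime vesicles, Unc13b was at 26.0 against 5.61 FPKM and Unc13a at 5.82 against 9.68. The scaffold Rims2 lay close to the pool (11.0 against 10.1 FPKM), whereas Rims1 was low (0.144 against 8.20).

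The calcium channel of photoreceptor terminals was above the pool in its pore-forming subunit Cacna1f (86.7 FPKM at midday, 73.1 at midnight, 9.40 in the pool) and its partner Cacna2d4 (57.9, 35.6 and 5.88). Snap25, a core fusion protein, ranked 2 in abundance in the gland at 1213 FPKM by day, 1217 by night and 417 in the pool. Slc17a7, which loads vesicles with glutamate, stood at 582, 499 and 90.7 FPKM, and Syp, synaptophysin, at 540, 507 and 120. Slc32a1, which loads GABA and glycine, was at 0.0669 FPKM against 24.2. Of 11 synaptotagmins, calcium sensors of release, 7 were at least 4-fold lower, led by Syt2 (0.0338 against 28.0 FPKM), and Syt1 was the most abundant in the gland at 105 against 63.8. Ribbon forms and brain forms thus lay on different sides of the pool for the complexins.

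Receptors for fast transmitters were mostly low. Of 26 genes of glutamate, GABA and glycine receptors and of transmitter synthesis, none was at least 4-fold higher and 17 were lower by that much (65.4%, median -2.88). The shares of all genes compared were 3.01% higher and 15.8% lower. Gad1, the main GABA-synthesizing enzyme, was at 0.115 against 37.9 FPKM. Grin1, the obligatory NMDA receptor subunit, was at 0.361 against 30.2, and Gabra6, a cerebellar GABA receptor subunit, at 0.0660 against 26.4. Grin2c, another NMDA receptor subunit, was higher, at 31.7 against 10.3 FPKM, without its partner Grin1. Voltage-gated sodium channels gave the same picture, with 6 of 8 members at least 4-fold lower (median -3.41).

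Receptors for acetylcholine and noradrenaline stood out by single members. Of 16 nicotinic subunits, 4 reached the floor. Chrnb4 stood at 211 FPKM at midday, 153 at midnight and 0.362 in the pool (log2 7.28), and Chrna3 at 56.4, 82.7 and 1.32 (log2 4.63). Both subunits form the ganglionic type of the receptor, and their genes are neighbours on rat chromosome 8 of rn4, at 58570223 to 58583594 for Chrna3 and 58586961 to 58605545 for Chrnb4, 3367 bp apart. Chrna5, a further subunit of this receptor type, was at 0.225 FPKM in the gland. Chrna4, the main brain alpha subunit, was at 0.0392 against 5.85 FPKM, and Chrnb2 equalled the pool at 8.06 against 8.09. Of the adrenergic receptors, Adrb1 stood at 84.7, 133 and 2.74 FPKM and Adra1b at 33.9, 60.1 and 3.56. Adra1a (1.71 against 1.78 FPKM) and Adra1d (0.0267 against 2.14) were under the floor in both libraries. Adrb1 and Adra1b were the only members of the list of 20 adrenergic and cyclic AMP genes compared that were at least 4-fold higher (10%, against 3.01% of all genes compared). At least 4-fold lower were 3 of the 20 (15%, near the 15.8% of all genes compared), and the median was -0.60.

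Downstream of the receptors most cyclic AMP genes lay nearer to the pool. The adenylyl cyclase Adcy2 stood at 52.0 FPKM at midday, 70.8 at midnight and 13.9 in the pool, and Adcy1 at 29.3, 8.24 and 19.3. Prkaca, the catalytic subunit of protein kinase A, stood at 69.6 against 62.2 FPKM. Its regulatory subunits Prkar2a (28.5 against 13.7 FPKM) and Prkar2b (35.9 against 14.8) were above the pool, and the brain form Prkar1b was at least 4-fold lower (12.1 against 59.7). Pde4b, a phosphodiesterase that degrades cyclic AMP, had 9.29 FPKM at midday beside 9.34 in the pool and 93.1 at midnight. Crem, whose short form represses cyclic AMP targets, had 12.1 FPKM at midday, 428 at midnight and 19.7 in the pool. The tables' entries for Gnas span only the part of the locus that encodes the NESP55 protein, so its 0.122 against 22.02 FPKM gives no level for the Gs alpha subunit.

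**Figure D3:**
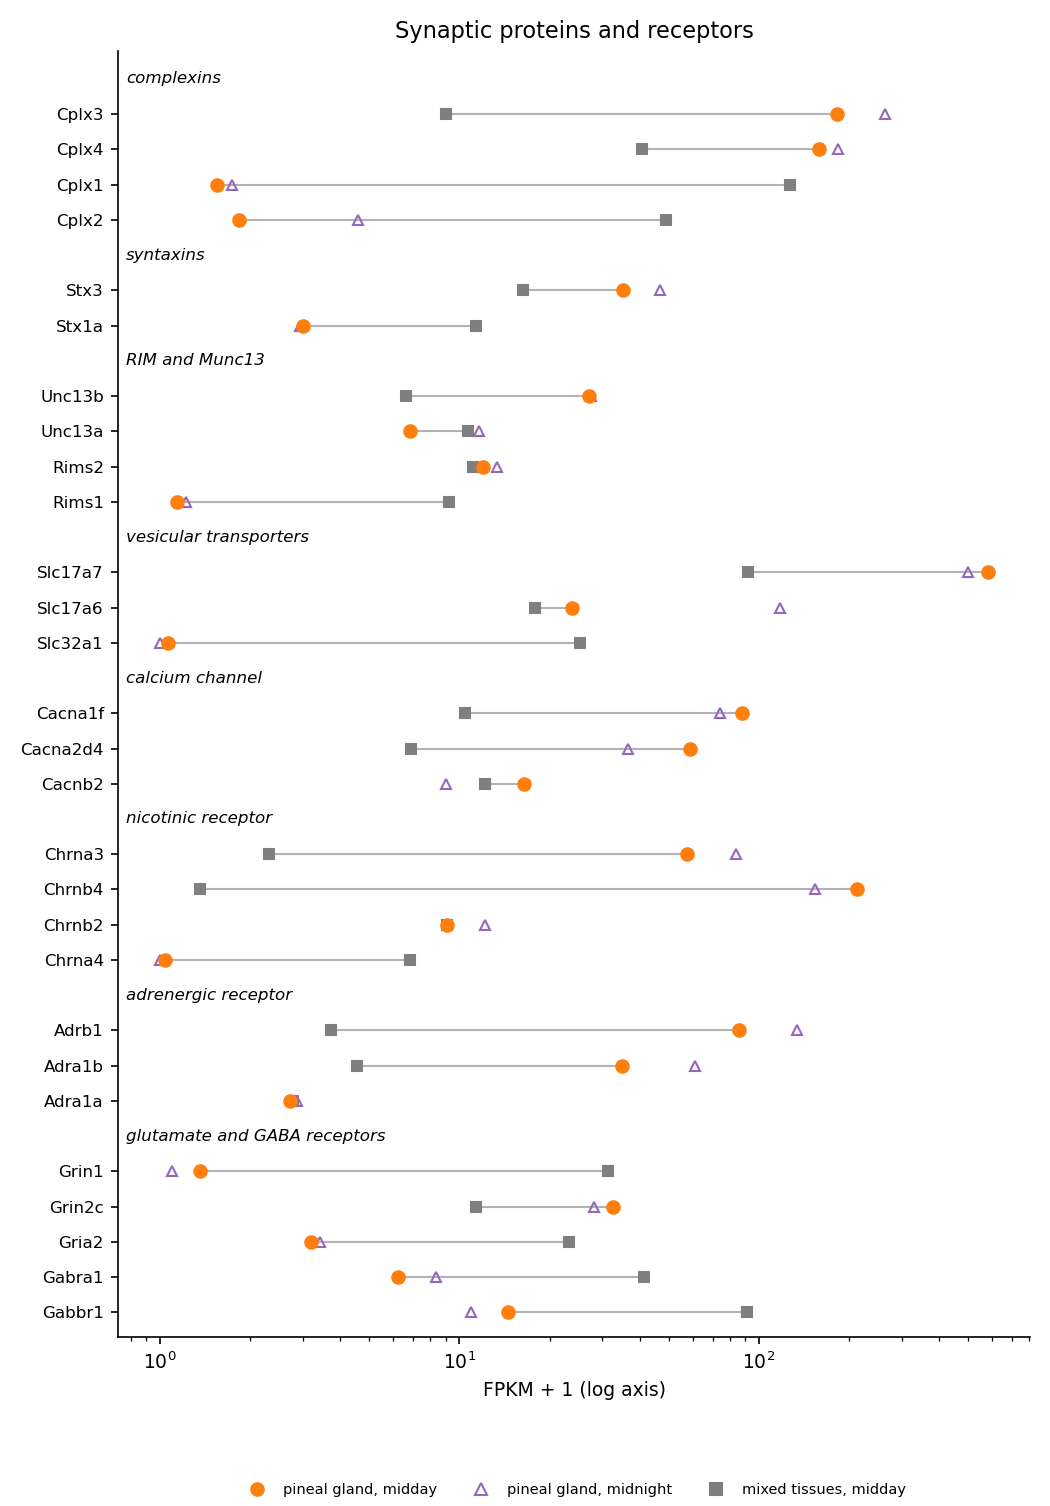
Levels of synaptic proteins and receptors as FPKM + 1 on a log axis, 1 value per library: circles for the gland at midday, triangles for midnight, squares for the mixed tissues. Cplx3 and Cplx4 lie right of their squares and Cplx1 and Cplx2 left of them, and Chrna3, Chrnb4, Adrb1 and Adra1b lie far to the right while Grin1 and Slc32a1 lie far to the left.

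Secretory granule genes were split between granule proteins and peptide hormones. Ptprn, a transmembrane protein of dense-core granules also known as IA-2, stood at 946 FPKM at midday, 782 at midnight and 53.1 in the pool, rank 7 in the gland. Chga, chromogranin A, stood at 421, 510 and 85.6 FPKM. Of 20 granule genes compared, these 2 were at least 4-fold higher (10%, against 3.01% of all genes compared). At least 4-fold lower were 9 (45%, against 15.8%). The lower ones were mainly peptide precursors, which other organs of the pool make, led by Pomc (1.503 against 449 FPKM), Sst (0.141 against 31.8) and Cck (0.658 against 41.9). The processing enzyme Pcsk2 was also low at 0.263 against 15.6 FPKM. Penk, the enkephalin precursor, was the exception among the peptides at 97.0 against 32.8 FPKM.

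Ion channels outside the synapse and solute carriers had a few high members and many low ones, and so did all genes compared. Of all genes compared, 3.01% were at least 4-fold higher and 15.8% at least 4-fold lower. Of 36 potassium channel genes compared, 3 were at least 4-fold higher (8.33%) and 17 at least 4-fold lower (47.2%, median -1.83). Kcnh6, an ERG-type channel, stood at 108 FPKM by day, 87.1 by night and 1.77 in the pool. Kcne2, an accessory subunit, stood at 94.9, 41.6 and 6.80 FPKM, and the inward rectifier Kcnj14 was at 103 against 14.3. The lowest were Kcna1 (0.107 against 19.1 FPKM) and the glial rectifier Kcnj10 (0.543 against 25.9). Among 192 solute carriers, 8 were at least 4-fold higher (4.17%, near the share of all genes) and 53 at least 4-fold lower (27.6%). The higher ones included the bicarbonate cotransporter Slc4a5 (54.6 against 2.26 FPKM) and the zinc importers Slc39a4 (81.2 against 7.49) and Slc39a8 (37.0 against 4.29). The lowest ratios belonged to Slc7a13 and the phosphate carriers Slc34a1 and Slc34a2, all listed at 0 in the gland and at 57.1, 57.0 and 45.6 FPKM in the pool.

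Other genes among the 20 highest ratios belong to none of these groups. Col8a1, a collagen of basement membranes, stood at 171 FPKM at midday, 108 at midnight and 1.32 in the pool. It was the only one of 16 collagens that was at least 4-fold higher, and Col1a1 (52.8 against 81.4 FPKM) and Col3a1 (64.7 against 145) were below the pool. Alox15, a lipoxygenase that oxidizes polyunsaturated fatty acids, stood at 642, 533 and 13.7 FPKM. Esm1, a secreted proteoglycan known from endothelial cells, stood at 156, 175 and 2.96 FPKM, whereas the 8 endothelial markers compared were all below the pool (median -1.80). The protease Prss53 stood at 101, 80.1 and 2.16 FPKM, and Mpp4, a scaffold of photoreceptor terminals, at 313, 334 and 11.4.

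Several of the most abundant pineal transcripts were also above the pool. Gpx4, a selenoenzyme that reduces lipid peroxides, stood at 854 FPKM by day, 666 by night and 103 in the pool. It was the 1 antioxidant gene of 23 that was at least 4-fold higher (4.35%, near the 3.01% of all genes compared). At least 4-fold lower were 5 of the 23 (21.7%, against 15.8% of all genes compared). The median of the 23 was -0.95, with Gpx3 at 2.47 against 394 FPKM and the selenium carrier Sepp1 at 49.1 against 437. Cd63, a tetraspanin of late endosomes, stood at 920 against 142 FPKM, and Plekhb1, a protein known from photoreceptors, at 865 against 99.2. Apoe, the main apolipoprotein of the brain, was nearly equal at 1040 and 1064 FPKM. The 10 other apolipoproteins compared were all at least 4-fold lower, 2 of them being Apoa4 and Apoh, both listed at 0 in the gland.

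Housekeeping machinery lay close to the median of all genes. No proteasome subunit of 43, no complex I subunit of 36, no ATP synthase subunit of 16 and no mitochondrial ribosomal protein of 62 was 4-fold apart in either direction, with medians of -0.11, -0.33, -0.43 and -0.15. The first and the last of these medians turn positive when ratios are centred. The vacuolar ATPase, the proton pump of acidic organelles and vesicles, had a median of 0.41 over 16 subunits, with Atp6v0e2 at 269 against 67.5 FPKM and Atp6v0d1 at 378 against 114, while the neuronal subunit Atp6v1g2 was low at 2.10 against 87.0. Muscle forms of oxidase subunits were low, as Cox8b at 2.47 against 271 FPKM, whereas Cox8a was at 624 against 220. Of the 79 cytosolic ribosomal protein genes found, 28 were compared, and 36 were under 1 FPKM in both libraries, which is below what such genes have in most cells. Gapdh, Ppia and Rps18 were listed near or at 0 in all libraries in the same way. These genes have many near-identical copies in the rat genome (a median of 15 named copies in RefSeq for the 36, of 12 for the other 43). Gapdh has 91 such copies, and Rplp0, at 61.8 against 82.2 FPKM, has 15. Gpx1, with 0 named copies, was listed at 0 in all libraries. Whether copies lower these levels was not tested, and the levels here are uncertain. Of 11 reference genes compared, 10 were within 4-fold, such as B2m at 486 against 504 FPKM and Sdha at 104 against 120. Hprt1, a purine salvage enzyme, was over 2-fold higher at 72.1 against 29.0 FPKM, and Tfrc, the transferrin receptor, was at least 4-fold lower at 4.96 against 27.8.

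Clock genes at midday were no further from the pool, which was taken at the same hour: none of 11 was 4-fold apart and the median was -0.02, which turns positive when centred. Dbp stood at 39.2 FPKM in the gland, 39.7 in the pool and 89.8 in the gland at midnight, and Nr1d1 at 31.2, 35.0 and 41.8. Per1 was lower at 5.11 FPKM against 10.8, with 40.6 at midnight. Arntl, which peaks opposite to the Per genes in most tissues, stood at 11.8, 9.40 and 2.08 FPKM in the same order.

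Cholesterol synthesis was low in the gland. Of 20 enzymes and regulators compared, none was at least 4-fold higher and 9 were at least 4-fold lower, with a median of -1.82. The low members included Dhcr7, a late enzyme of the pathway, at 1.41 FPKM at midday, 0.820 at midnight and 23.1 in the pool, and Hmgcs1, an early enzyme, at 11.8, 11.6 and 114. Tm7sf2 (54.0 against 13.1 FPKM) and Pmvk (43.8 against 20.9) were above the pool. Liver and adrenal gland, which make or take up much cholesterol, are in the pool, and the part of single organs in these ratios was not tested. In glycolysis the low members included the muscle enolase Eno3 (4.97 against 203 FPKM) and Pfkp (2.40 against 54.7), while Eno2 stood at 169 against 146 and Pfkl at 60.6 against 29.7.

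The marker lists describe the cells in both libraries. Their counts stand beside 3.01% of all genes compared at least 4-fold higher and 15.8% at least 4-fold lower. All 12 pinealocyte markers were at least 4-fold higher, but the list was chosen with earlier results of these data known and gives no independent support. Oligodendrocyte markers were the lowest cell type list: 10 of 10 were at least 4-fold lower, with a median of -5.71 and a summed level of 63.4 FPKM in the gland and 5052 in the pool. Mbp, myelin basic protein, stood at 5.16 against 2720 FPKM, and Opalin was listed at 0 in the gland. Neuron markers were at least 4-fold lower for 8 of 11 (median -4.45), with the neurofilament gene Nefl at 0.0688 against 154 FPKM. Slc12a5 (108 against 51.6 FPKM) and Syt1 lay above the pool.

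Astrocyte markers were divided. Of 9 compared, 6 were at least 4-fold lower, among them Gfap (10.2 FPKM at midday, 5.16 at midnight, 165 in the pool), Aqp4 (9.13, 4.52 and 93.7) and S100b (21.7, 15.8 and 295). The glutamate transporter Slc1a2 (72.6 against 74.2 FPKM), the gap junction gene Gja1 (81.4 against 70.7) and Atp1b2 (538 against 198) were not. Fibroblast and meningeal markers had the cell type median nearest to 0, with 9 of 10 within 4-fold and a median of -0.01. Microglia and macrophage markers were within 4-fold for 7 of 8 (median -0.93) and mural cell markers for 6 of 7 (median -0.69). The globin gene Hbb was at 301 FPKM against 1024. Th, from the list of Schwann cell and nerve fibre markers, was at 0.0486 against 8.04, and its RNA does not measure sympathetic fibres in the gland.

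**Figure D4:**
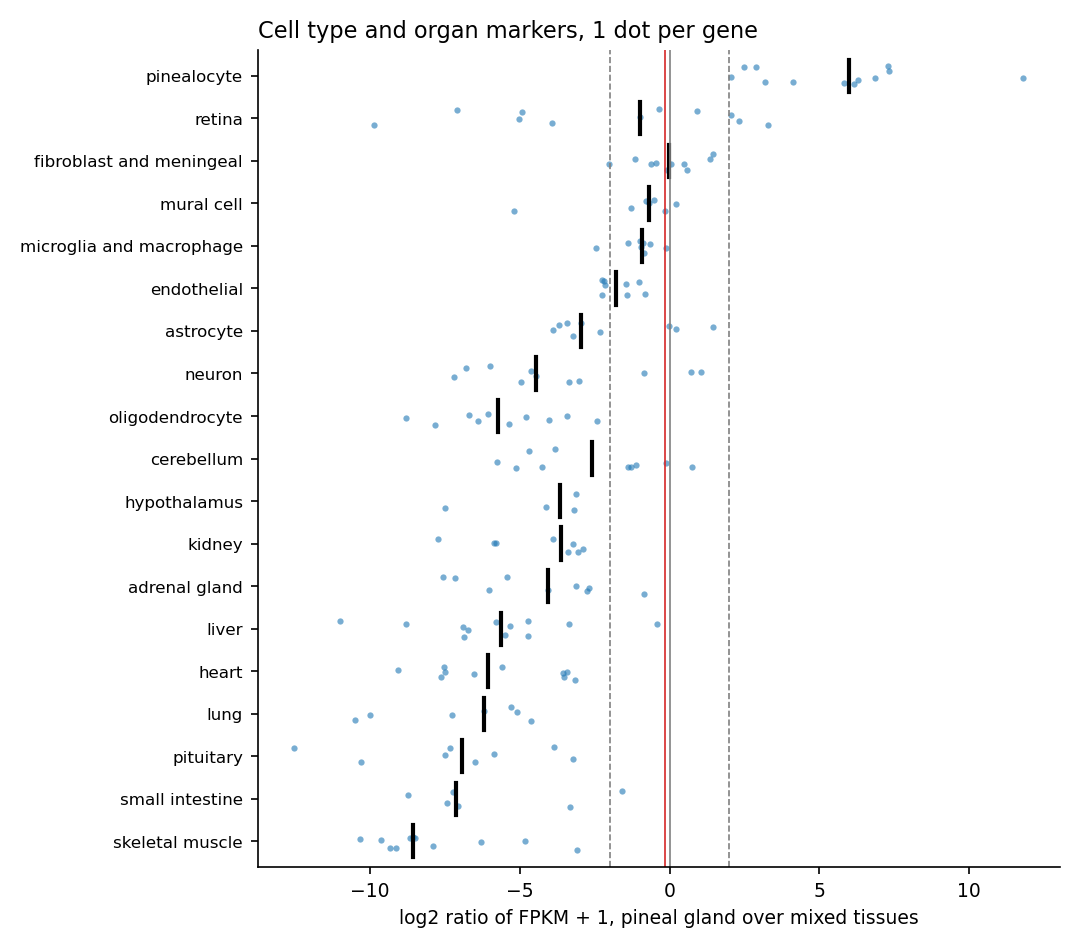
Log2 ratio of FPKM + 1, gland over pool, for the marker genes compared, 1 dot per gene and a black bar at each list's median; the grey lines mark equal values and 4-fold, the red line the median of all genes compared. Pinealocyte markers lie above 2, fibroblast markers around 0, and the markers of muscle, pituitary and small intestine lie lowest.

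Markers of the pooled organs were mostly low or listed at 0 in the gland. Of 102 different markers compared, 86 were at least 4-fold lower and 46 were listed at 0 in the gland. The 20 lowest ratios were mostly of this kind. Gh1, pituitary growth hormone, was listed at 0 in the gland at both times and at 5891 FPKM in the pool, its most abundant transcript. Alb, serum albumin of the liver, was listed at 0 against 2030 FPKM, Scgb1a1 of lung airways at 0 against 1449, and the muscle actin Acta1 stood at 0.114 against 1440. Skeletal muscle markers summed to 0.880 FPKM in the gland and 5325 in the pool, and pituitary markers to 2.31 and 7956. The 8 troponins, the calcium switch of striated muscle, were all at least 4-fold lower with a median of -7.32. The 4 organ markers that were at least 4-fold higher were genes of retina or cortex that the gland also expresses: Rbp3, Gngt1, Trpm1 (32.9 against 5.74 FPKM), a channel of retinal bipolar cells and melanocytes, and Slc17a7.

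Families of detoxification and barrier function held more low members than high ones, as did all genes compared (15.8% at least 4-fold lower, 3.01% higher). Of 40 cytochrome P450 genes compared, 33 were at least 4-fold lower and none higher (median -3.47), led by the adrenal steroid hydroxylases Cyp21a1 (0.286 against 240 FPKM) and Cyp11a1 (0.0982 against 156). Of 15 glucuronosyltransferases and sulfotransferases, 14 were at least 4-fold lower. Of 18 glutathione transferases 7 were at least 4-fold lower and 10 within 4-fold, and Gstm6 was higher at 14.7 against 1.11 FPKM. Of 8 claudins, the seal of tight junctions, 7 were at least 4-fold lower, and Cldn12 was the exception at 10.9 against 12.2 FPKM. Of 8 aquaporins 6 were at least 4-fold lower. Among 9 cadherins 5 were at least 4-fold lower, such as Cdh1 of epithelia (2.35 against 16.2 FPKM), and 2 were higher, Cdh2 of neural tissue (109 against 23.2) and Cdh22 (22.6 against 4.31).

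**Figure D5:**
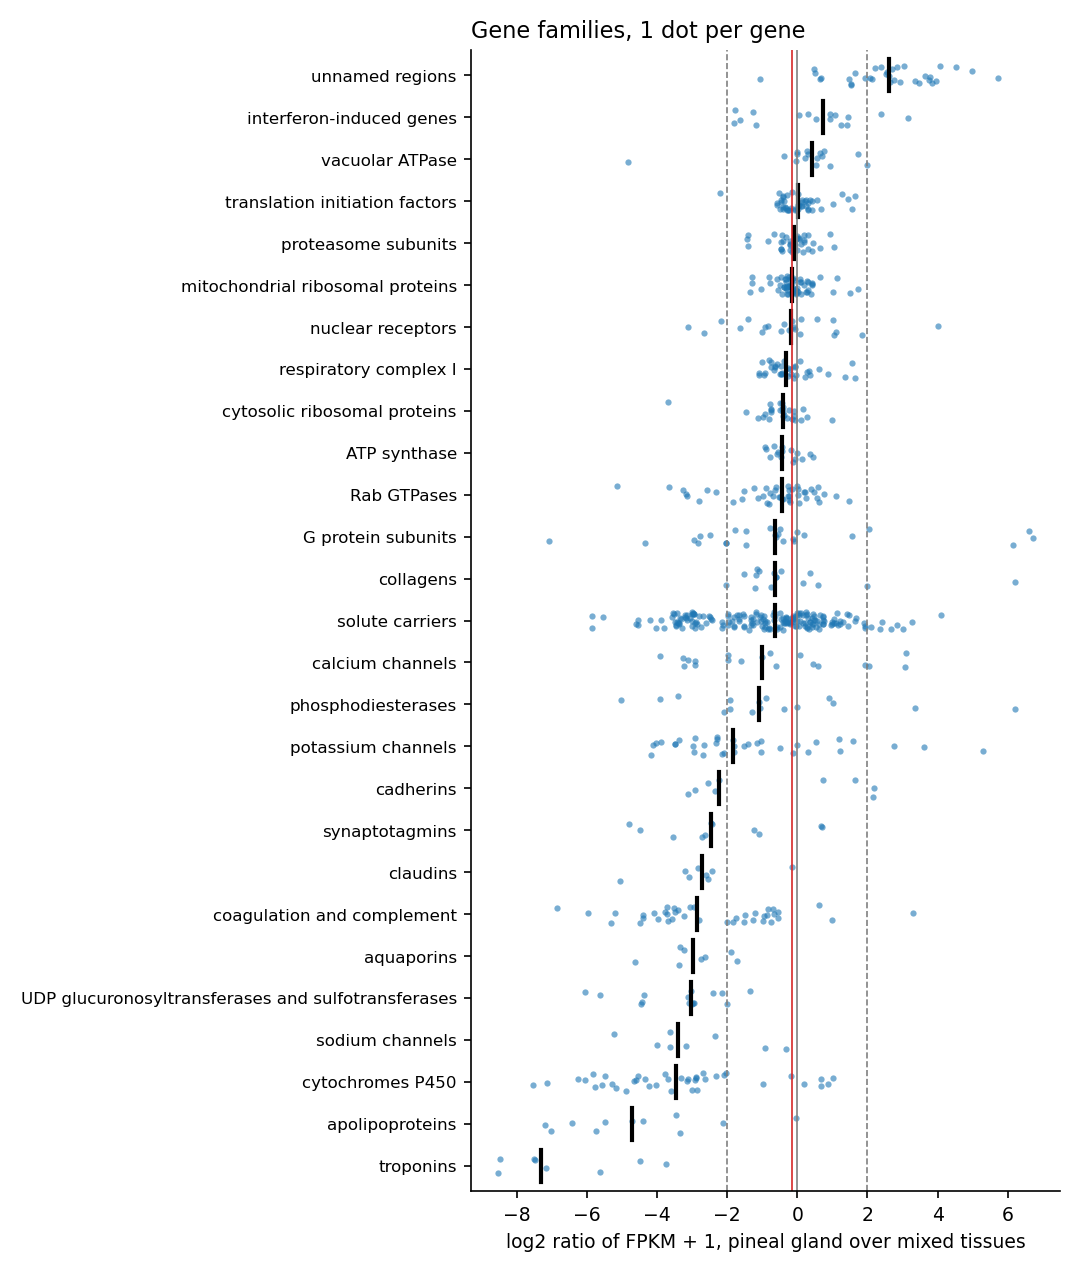
Log2 ratio of FPKM + 1, gland over pool, for 27 gene families with at least 5 members compared, 1 dot per gene and a black bar at the median; grey lines mark equal values and 4-fold, the red line the median of all genes compared. Of the 61 families with at least 5 members compared, 7 had a median above 0 and 54 below, and G protein subunits and phosphodiesterases show single members far above or below the rest.

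The 34 unnamed regions went against this direction, with 24 at least 4-fold higher, none at least 4-fold lower and a median of 2.63. The sources used here do not say how they were defined, so the way they were chosen and their direction cannot be told apart. The highest, on chromosome 17 from 6165770 to 6166390 of rn4, stood at 60.4 FPKM at midday, 37.5 at midnight and 0.155 in the pool. Another, on chromosome 1 from 267319620 to 267319890, stood at 249, 116 and 16.5 FPKM. One region on chromosome 10 lies 146 bp from Aipl1, itself at 368 FPKM, and stood at 17.8 FPKM against 0.832.

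Among named genes at least 4-fold higher, 16 pairs lay within 100 kb of each other. The share of all genes compared with such a neighbour was not computed, and other genes can lie between the members of a pair. Besides Chrna3 and Chrnb4 the pairs include Syp and Cacna1f on chromosome X (3558 bp apart) and Als2cr4 and Mpp4 on chromosome 9 (787 bp). Others are Cplx3 and Lman1l on chromosome 8 (542 bp) and Oasl and Oasl2 on chromosome 12 (26699 bp). The counting is not stated to use strand, so where such genes lie end to end or overlap, reads of one can add to the other. Lman1l, at 10.3 FPKM beside 181 for Cplx3, and Als2cr4, at 77.4 beside 313 for Mpp4, are the weaker members of their pairs.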

How the data were processed

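Poly(A) RNA of 3 rat libraries, 1 per group, was analysed: pineal gland at midday, pineal gland at midnight and mixed tissues at midday. The authors deposited FPKM per transcript, per the file headers. TopHat 1.3.1, Cufflinks 1.2.0 and build rn4 are listed, per the submitters' processing notes. Options, filters, strand setting and treatment of reads with several matches are not given in these sources, and shared reads can lower genes with near-identical copies.

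The 17089 entries were summed by gene symbol to 16629 genes and regions. Those with FPKM of at least 5 in the midday gland or the pool were kept, and the log2 ratio of FPKM + 1 was taken. With 1 library a side no test was run. The ratio step was checked on simulated data. Python 3.11.15, pandas 2.3.3 and numpy 2.4.6 were used. Depth was estimated from the steps of low FPKM values in 1341 receptor gene models, since the files give no interval bounds to use: 1 FPKM corresponded to 8.74, 5.29 and 9.73 fragments per kb in the midday, midnight and mixed libraries. Such limits cover counting error only.

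Members, 47 gene lists (643 of 695 symbols found) and 69 families by symbol pattern were chosen with earlier results of these data known. Family patterns were narrowed, and Gucy2d was replaced by the file's Gucy2e, after values were seen. Named are the 20 highest and 20 lowest ratios, the 15 most abundant genes, members of lists and families at least 4-fold apart from the largest ratio, up to 5 members within 4-fold by summed FPKM, and paralog counterparts. Small RNAs, models under 300 bases, mitochondrial genes and unofficial symbols are not named. Genes named outside this rule (neighbours, those beside a threshold, members under the floor) were chosen after their values were seen. Symbols turned into dates (14 compared) are counted but not named, and some further genes are not reported here. Alternatives were 2 other pseudocounts, 3 other filters, 2 other scalings, the largest entry per symbol and named genes alone. Coordinates are on rn4, with starts counted from 1, except promoters (RefSeq, GRCr8).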

Additional observations from a re-analysis of the deposited data

Results flagged for a closer look

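Dusp1 and Slc15a1 lay on opposite sides of the mixed tissues by day and by night. Dusp1, a phosphatase that ends MAP kinase signals, stood at 3.61 FPKM in the gland at midday, 237 at midnight and 39.1 in the pool, with log2 ratios to the pool of -3.12 and 2.57. Slc15a1, a peptide transporter, stood at 0.220, 287 and 4.19 FPKM, with log2 ratios of -2.09 and 5.79. Its midday gland and pool values were both under the floor of 5 FPKM, so it was not among the genes compared and its midday ratio rests on low values. Both ratios of a gene use the same mixed library, taken at midday, and the difference was not tested.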

How the results depend on the processing

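No paired analysis was possible because each group had 1 library and the result comes from no test. Of the 265 genes at least 4-fold higher, 156 were still so with a pseudocount of 5, and of the 1389 at least 4-fold lower, 522. With FPKM of at least 20 in either library, the 4-fold genes numbered 206 higher and 570 lower, since fewer genes were compared, and 26.5% of the 4-fold genes were higher, against 16.02%. The other 7 alternatives gave 241 to 330 higher and 1258 to 1583 lower genes. The median log2 ratio was -0.13 with a pseudocount of 5, -0.27 with FPKM of at least 1, -0.0749 with FPKM of at least 20, -0.0709 with no filter, 0.0 when centred and 0.0285 after rescaling without the 20 highest genes of either library. The median of the nicotinic receptors became -0.75 with FPKM of at least 1 and -0.24 with no filter. That of the fate factors became -0.23 with no filter. Genes under 5 FPKM in both libraries enter there, and not all of them lack signal. Under 1 FPKM in both were 8 of the 16 nicotinic subunits found and 1 of the 27 fate factors found. With FPKM of at least 20 the median became 1.28 for organic anion transporters and 1.90 for cadherins, over fewer genes. With a pseudocount of 5, 75 of 520 listed genes crossed the 4-fold mark. No listed gene at least 4-fold apart changed its side under the 9 alternatives, but this outcome was nearly fixed in advance. A pseudocount cannot reverse a ratio and a filter leaves it as it is. The 2 scalings shifted log2 ratios by 0.17 and at most 0.21. Without replicates, differences between animals are not covered by any of these values.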

Other observations

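Genes of the immune response lay on both sides of the pool, as did all genes compared (3.01% at least 4-fold higher, 15.8% lower). Of 16 interferon-induced genes compared, 2 were at least 4-fold higher and none lower, with a median log2 ratio of 0.72: Oasl stood at 28.8 FPKM at midday, 44.5 at midnight and 2.36 in the pool, and its neighbour Oasl2 at 24.1, 13.9 and 3.83. Among 17 chemokines and receptors, Ccl19, which guides lymphocytes and dendritic cells, was the 1 at least 4-fold higher (28.4, 28.2 and 1.59 FPKM), and 8 were at least 4-fold lower (median -1.83). Of 20 MHC genes none was at least 4-fold higher and 5 were lower, all of class II, led by RT1-Bb at 2.999 against 32.7 FPKM. The integrin subunit Itgb2 of leukocytes stood at 39.1 against 6.25 FPKM, while the leukocyte marker Ptprc was at 1.25 against 5.87.

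Signals between cells were represented by 1 or 2 members each. Gdf7, a BMP ligand, stood at 10.2 FPKM at midday and 43.2 at midnight and was listed at 0 in the pool. Sema3a, an axon guidance factor, stood at 26.6 against 2.21 FPKM, Efna5 at 33.2 against 3.76 and Fgf1 at 54.8 against 7.53. In each of these families the other members compared were within 4-fold or lower, as were most genes compared. The share at least 4-fold higher was 4.76% of 21 semaphorins and plexins and 10% of 10 BMP, TGF beta and activin ligands. It was 11.1% of 9 ephrins and Eph receptors and 12.5% of 8 fibroblast growth factors and receptors. Over all genes compared it was 3.01%, and each of these shares rests on 1 gene.

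Further genes high in the gland, chosen after their values were seen, were the cochaperone Dnajc12 (299 FPKM at midday, 183 at midnight, 14.4 in the pool), Irs1, the insulin receptor substrate (66.8, 67.0 and 2.51), the protease inhibitor A2m (181, 157 and 8.97), the phospholipase Pla2g5 (112, 89.3 and 4.29), the receptor tyrosine kinase Kit (74.9, 96.7 and 8.08) and Nphs1, nephrin of the kidney filter (23.7, 19.2 and 0.507).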
